A study of Mus musculus with 6 samples.

Results

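Nrros and Ky are 2 protein-coding mouse genes whose small RNA of piRNA size was much more abundant in testes without Miwi2 than in wild-type testes. They were chosen from that comparison, in which 107 transcripts were past the size limit upward in the Miwi2 knockout (KO). Of these, only Nrros and Ky had more than 90% of their KO reads found in no other gene, with reads of at least 10 genes left out. The Miwi2 contrast and the share of reads found in 1 gene are therefore given as description. The annotation held 55450 genes with a longest transcript, and 1666 of these had at least 500 sense reads over both Miwi2 libraries. Over the 6 libraries, 571 distinct reads of 24 to 32 nt were found without mismatch on either strand of the Nrros transcript, and 252 on the Ky transcript.

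Each library was made from whole testes of C57BL/6 mice, pooled within a genotype, and no group had a second library. At 16.5 days post coitum (dpc), 7 or 8 animals were pooled for Dnmt3L WT and as many for Dnmt3L KO. At 10 days post partum (dpp), 3 animals were pooled for each of Dnmt3L WT, Dnmt3L KO, Miwi2 WT and Miwi2 KO, and each wild type (WT) was a littermate control of its line. There was no Miwi2 library at 16.5 dpc, so the genotype could be compared only at 10 dpp. The labels do not describe the alleles. Small RNA from Dnmt3l and Piwil4 (the gene of MIWI2) does not check the genotypes, since it is not a measure of their mRNA: sense reads of Dnmt3l were at 2.45 RPM in the WT and 6.08 RPM in the KO at 16.5 dpc, and Piwil4 had 1 to 9 reads per library. RPM are reads scaled to a library total of 1000000, and the totals ran from 28701563 to 47232494 reads, so 3 reads were worth 0.0635 to 0.105 RPM. Intervals are exact 95% intervals for counting error only. With 1 pool per group there is no test of any difference and no spread between animals. The Dnmt3L KO library of 10 dpp stood apart: only 0.714% of its reads of 24 to 32 nt were longer than 28 nt, against 5.30% to 26.5% in the other libraries, and its transcripts had a median log2 ratio of -3.00 to the WT.

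piRNAs are small RNAs of the germ line that guide PIWI proteins to matching transcripts and, in the fetal testis, to transposon loci that become methylated. MIWI2 is the nuclear PIWI protein of fetal male germ cells, and DNMT3L is the cofactor of the methyltransferases that act there. In mouse testis, piRNAs cut from a long precursor mostly begin with U, whereas reciprocal cutting between both strands (ping-pong) leaves partners whose 5′ ends overlap by 10 nt and an A at position 10. Many genes of the postnatal testis give piRNAs from their own mRNA, mainly from the 3′ UTR. Nrros (also LRRC33) encodes a membrane protein with leucine-rich repeats that holds latent TGF-beta on macrophages and microglia and restrains reactive oxygen species. Ky encodes the kyphoscoliosis peptidase, a muscle protein of the Z-disc that interacts with filamin C.

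Nrros lies on chr16:32142785-32165594 of GRCm38, minus strand. Its longest transcript in GENCODE vM21 has 3577 nt in 4 exons, with a 5′ UTR of 1288 nt, a coding sequence (CDS) of 2082 nt including the stop codon, and a 3′ UTR of 207 nt. Ky lies on chr9:102505750-102546239, plus strand. Its longest transcript has 5837 nt in 11 exons, with a 5′ UTR of 393 nt, a CDS of 1986 nt and a 3′ UTR of 3458 nt. No other annotated gene overlapped either of them.

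The 5 most abundant Nrros reads by summed RPM, which held 22.5% of its sense reads found in 1 gene, are shown as they were sequenced, with T for U and with position 1 and position 10 in capitals. They are named by the position of their first base in the transcript, and all are sense reads of the CDS found in no other gene's longest transcript.
Nrros 1526: TacccacgcCtggagaacctcagcct
Nrros 1476: TtctggatgCtaaccctctcaaggacct
Nrros 2350: TtcccacctGaacctcaaccagaactgcct
Nrros 2351: TcccacctgAacctcaaccagaactgcct
Nrros 1331: TtgattgtgGaatggaggagcggacc
All 5 begin with U, and 1 of them has A at position 10. The first lies on chr16:32144851-32144876 in exon 4 and was counted 62 times in Dnmt3L WT and 104 times in Dnmt3L KO at 16.5 dpc. At 10 dpp it was counted 0 times in Dnmt3L WT, 19 times in Dnmt3L KO, 0 times in Miwi2 WT and 86 times in Miwi2 KO. The second lies on chr16:32144899-32144926 in the same exon. The reads from 2350 and 2351 lie on chr16:32144023-32144052 and chr16:32144023-32144051: they end at the same base and differ in 1 base at the 5′ end. The read from 1331 lies on chr16:32147593-32147618 in exon 3.

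The leading Ky reads are shown in the same way, because they come from both the CDS and the 3′ UTR and because 1 of them crosses an exon joint.
Ky 3955: TgccaagtgGaacctatctgaagacct
Ky 4394: TagccctgcAgaaaatgatccccatgtt
Ky 983: TagagtacgAcgttgaggctgcccagg
Ky 1937: TgaaccgagGgaagaggaccgagctc
Ky 3421: TctgagatgAcaacccctgccctgagtt
All 5 begin with U, and 3 have A at position 10. The reads from 3955, on chr9:102544357-102544383, from 4394, on chr9:102544796-102544823, and from 3421, on chr9:102543823-102543850, lie in the 3′ UTR within exon 11. The read from 1937, on chr9:102542339-102542364, lies in the CDS part of exon 11. The read from 983 crosses the joint of exon 7 and exon 8, so that its genomic span of chr9:102526802-102527923 contains an intron. The most abundant Ky read, from 3955, was counted 2 times in Dnmt3L WT and 8 times in Dnmt3L KO before birth, 1 and 5 times in the same genotypes at 10 dpp, and 0 and 75 times in Miwi2 WT and KO. The read across the joint, from 983, was counted 27 times in Miwi2 KO, 2 times in Dnmt3L KO at 10 dpp and 0 times elsewhere.

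Sense reads of Nrros were abundant in both fetal libraries, nearly absent in both WT libraries of 10 dpp, and abundant again in Miwi2 KO. Counts of reads that matched more than 1 gene were shared out equally among those genes, and on that count Nrros had 26.9 RPM (25.3 to 28.5) in Dnmt3L WT and 21.7 RPM (20.4 to 23.1) in Dnmt3L KO at 16.5 dpc. At 10 dpp it had 0.256 RPM (0.126 to 0.483) in Dnmt3L WT, 4.56 RPM (3.82 to 5.42) in Dnmt3L KO, 0.267 RPM (0.138 to 0.466) in Miwi2 WT and 29.8 RPM (28.1 to 31.6) in Miwi2 KO. In order of level, Miwi2 KO and fetal Dnmt3L WT came first, with intervals that overlap, then fetal Dnmt3L KO, then Dnmt3L KO of 10 dpp. Both WT libraries of 10 dpp came last and could not be told apart.

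Ky was low in every library except Miwi2 KO. Its sense reads numbered 39 in fetal Dnmt3L WT and 57 in fetal Dnmt3L KO, or 0.920 RPM (0.655 to 1.26) and 1.21 RPM (0.914 to 1.56). At 10 dpp they numbered 12 in Dnmt3L WT and 50 in Dnmt3L KO, or 0.315 RPM (0.163 to 0.551) and 1.74 RPM (1.29 to 2.30). Miwi2 WT had 18 reads, or 0.400 RPM (0.237 to 0.632), and Miwi2 KO had 680 reads, or 18.3 RPM (16.9 to 19.7). The intervals of Dnmt3L KO at 10 dpp and Dnmt3L KO at 16.5 dpc overlap, as do those of both fetal libraries and those of both WT libraries of 10 dpp. Per length, Nrros had 8.34 RPM per kb of transcript in Miwi2 KO against 3.13 RPM per kb for Ky, and 7.52 against 0.158 RPM per kb in fetal Dnmt3L WT. The genes thus differed most before birth, when Nrros was high and Ky was not.

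**Figure D1:**
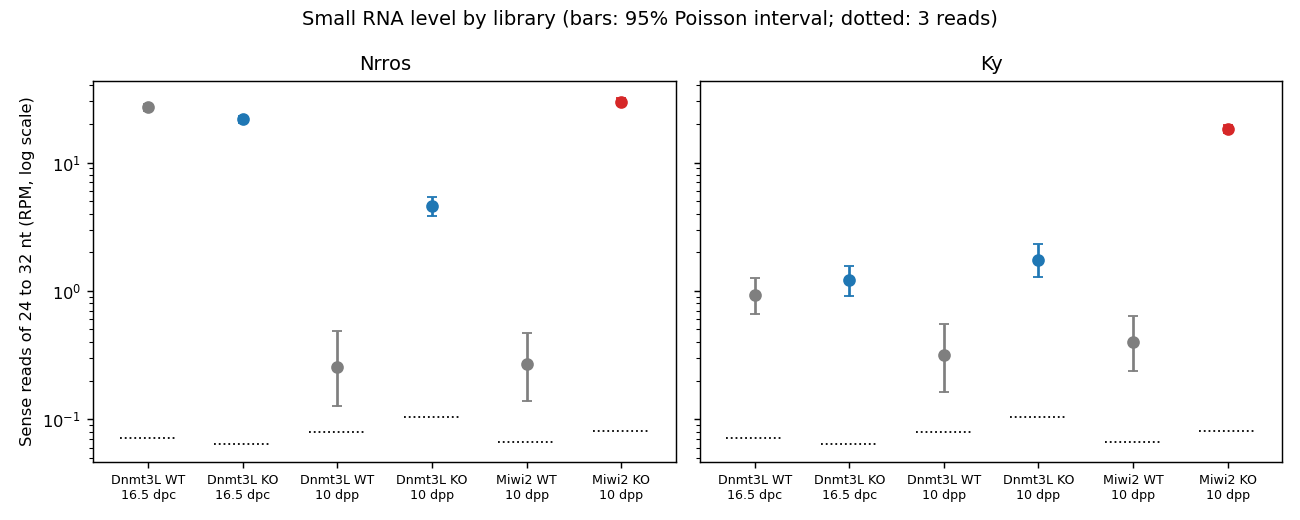
Sense reads of 24 to 32 nt of Nrros and Ky in each of the 6 libraries, in RPM on a log scale, with exact 95% Poisson intervals and a dotted line at the level of 3 reads. Nrros is high in both fetal libraries and in Miwi2 KO, whereas Ky is high only in Miwi2 KO, at 18.3 RPM.

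In the Miwi2 comparison, Nrros was 112-fold higher in the KO (63.8 to 217) and Ky 45.7-fold higher (28.7 to 77.6). On the log2 scale these ratios were 6.81 and 5.51, and they ranked 1 and 3 of the 1666 transcripts compared, whose median was -0.65. The size limit for a call was a log2 ratio of 2.02 in either direction, below which 95% of transcripts lay when Miwi2 WT was set against Dnmt3L WT of the same age. By that rule 107 of the 1666 transcripts, 6.42%, were higher in the KO and 0.48% were lower. Nothing is read from that share here, because these ratios chose the genes. The called transcript nearest the limit was Gm42863, at 2.11, and the nearest one under it was Gm12480, at 2.02 when rounded.

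Among the 107 risers, the share of KO reads found in 1 gene was 99.97% for Nrros and 100% for Ky, the next highest was 71.0%, and the median was 2.03%. Over all 1666 transcripts the median share was 96.0%, and 960 transcripts were above 90%. These shares leave out reads found in at least 10 genes and divide other shared reads. Of all KO sense reads found on the Nrros transcript, 1110 of 1175 were found in 1 gene. When only reads found in 1 gene were counted, 18 of 1177 transcripts, 1.53%, were higher in the KO, with Nrros first at a log2 ratio of 7.39 and Ky second at 5.51. Copies outside annotated longest transcripts were not looked for, since no genome sequence was used here.

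**Figure D2:**
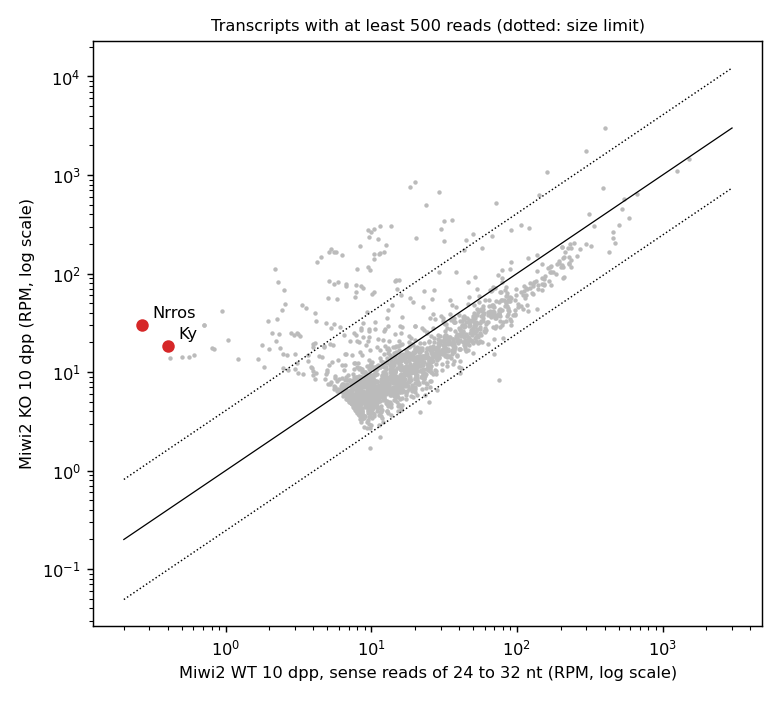
Sense reads of 24 to 32 nt of the 1666 transcripts with at least 500 reads, Miwi2 WT on the x axis and Miwi2 KO on the y axis, both in RPM on log scales. The solid line marks equal levels and the dotted lines the size limit. Nrros, at 0.267 and 29.8 RPM, and Ky, at 0.400 and 18.3 RPM, are the red points at the left edge.

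The Dnmt3L comparisons took no part in the choice of the genes. At 10 dpp both genes were higher in Dnmt3L KO while most other transcripts were lower. Nrros had 131 reads in the KO and 9.75 in the WT after division, a ratio of 17.8-fold (9.15 to 37.1) with a log2 of 4.16. Ky had 50 and 12 reads, a ratio of 5.53-fold (2.90 to 11.4) with a log2 of 2.47. Both ratios passed the limit of 2.02, but neither gene reached the minimum of 500 reads. Of the 613 transcripts that did, 9 were higher, 1.47%, and 502 were lower, 81.9%. With the minimum lowered to 100 reads, at which the limit was 2.38, Nrros was compared and ranked 1 of 2237 transcripts, of which 9 were higher, 0.402%. Ky had too few reads for that minimum as well. Scaled to miRNA reads in place of all reads, the log2 ratio of Ky was 2.23, under that scaling's limit of 2.71. Over reads of 24 to 28 nt alone, the log2 ratios were 4.12 for Nrros and 2.53 for Ky, past that setting's limit of 1.57. This range leaves out the longest reads but not all lengths that were scarce in this KO library. Reads of 28 nt numbered 107034 in it against 557292 in the WT, before scaling.

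Before birth, loss of Dnmt3L went with no change past the limit in either gene. At 16.5 dpc, Nrros was 0.807-fold in the KO (0.741 to 0.879), a log2 ratio of -0.31, where 0.0867% of 1154 transcripts were higher and 0.0867% lower. Ky was 1.31-fold in the KO (0.857 to 2.02), an interval that includes equal levels, and had fewer than 500 reads. Both WT libraries of 10 dpp were close for both genes, with Miwi2 WT at 1.04-fold of Dnmt3L WT for Nrros (0.402 to 2.62) and 1.27-fold for Ky (0.578 to 2.89). Of 1473 transcripts in that comparison of controls, 4.96% were higher in Miwi2 WT and 0.0679% lower, with a median log2 ratio of 0.88. The limit was taken from this comparison, so the total share past it was set beforehand.

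Within its longest transcript, Nrros reads came almost wholly from the CDS. Of the sense reads found in 1 gene, 98.9% (98.2% to 99.5%) began in the CDS in fetal Dnmt3L WT, 99.0% in fetal Dnmt3L KO, 99.2% in Dnmt3L KO of 10 dpp and 99.9% in Miwi2 KO, with a lower bound of 99.5%. The CDS makes up 58.2% of the transcript. In Miwi2 KO, 0 of 1110 reads began in the 5′ UTR, 1 began in the 3′ UTR, and the first read began at position 1312, shortly after the start codon at 1289. Exon 4, which holds most of the CDS, had 92.7% of these reads and exon 3 had 7.30%, while exons 1 and 2 had 0 reads. Among the 404 protein-coding transcripts with at least 500 such reads in Miwi2 KO, the median share in the CDS was 8.78%, and 402 had a lower share than Nrros.

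Other annotated transcripts of Nrros held further reads upstream of the CDS. Its 9 other transcripts added 84 distinct sense reads, which came to 290 reads in fetal Dnmt3L WT, 156 in fetal Dnmt3L KO, 12 in Dnmt3L KO of 10 dpp, 4.15 in Miwi2 WT and 53.8 in Miwi2 KO after division. In fetal Dnmt3L WT, 193 of them lay in a short exon on chr16:32148059-32148118, upstream of exon 3, which belongs to a noncoding transcript, and 57 crossed the joint of that transcript's exons. A further 40 lay wholly or partly in an upstream extension of exon 3, in the 5′ UTR of another coding transcript. Of the 40 distinct reads within the short exon, 17 matched no other gene's longest transcript in sense. With these reads included, the CDS of the longest transcript held 78.9% of the reads in fetal Dnmt3L WT, 85.9% in fetal Dnmt3L KO, 90.9% in Dnmt3L KO of 10 dpp and 95.3% in Miwi2 KO. Reads wholly within the short exon were few at 10 dpp in both Miwi2 genotypes, with 4.75 in Miwi2 KO and 4.15 in Miwi2 WT. Reads across the joint, which reach into that exon, numbered 30 in Miwi2 KO and 0 in Miwi2 WT. They numbered 40 in fetal Dnmt3L KO and 7 in Dnmt3L KO of 10 dpp. The other transcript of Ky added 0 reads.

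Ky reads covered the CDS and the 3′ UTR at equal density. In Miwi2 KO, 36.6% (32.99% to 40.4%) began in the CDS and 63.4% in the 3′ UTR, which correspond to 3.37 and 3.35 RPM per kb. The 5′ UTR had 0 of 680 reads. Reads fell in 48 of 59 windows of 100 nt, from position 503 to position 5677, and 355 of the 404 coding transcripts had a lower share in the CDS. In Miwi2 KO, 55 Ky reads, 8.09%, crossed an exon joint, as did 8 Nrros reads, 0.721% and so matched the spliced transcript and not the exons taken singly. Introns were not searched.

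**Figure D3:**
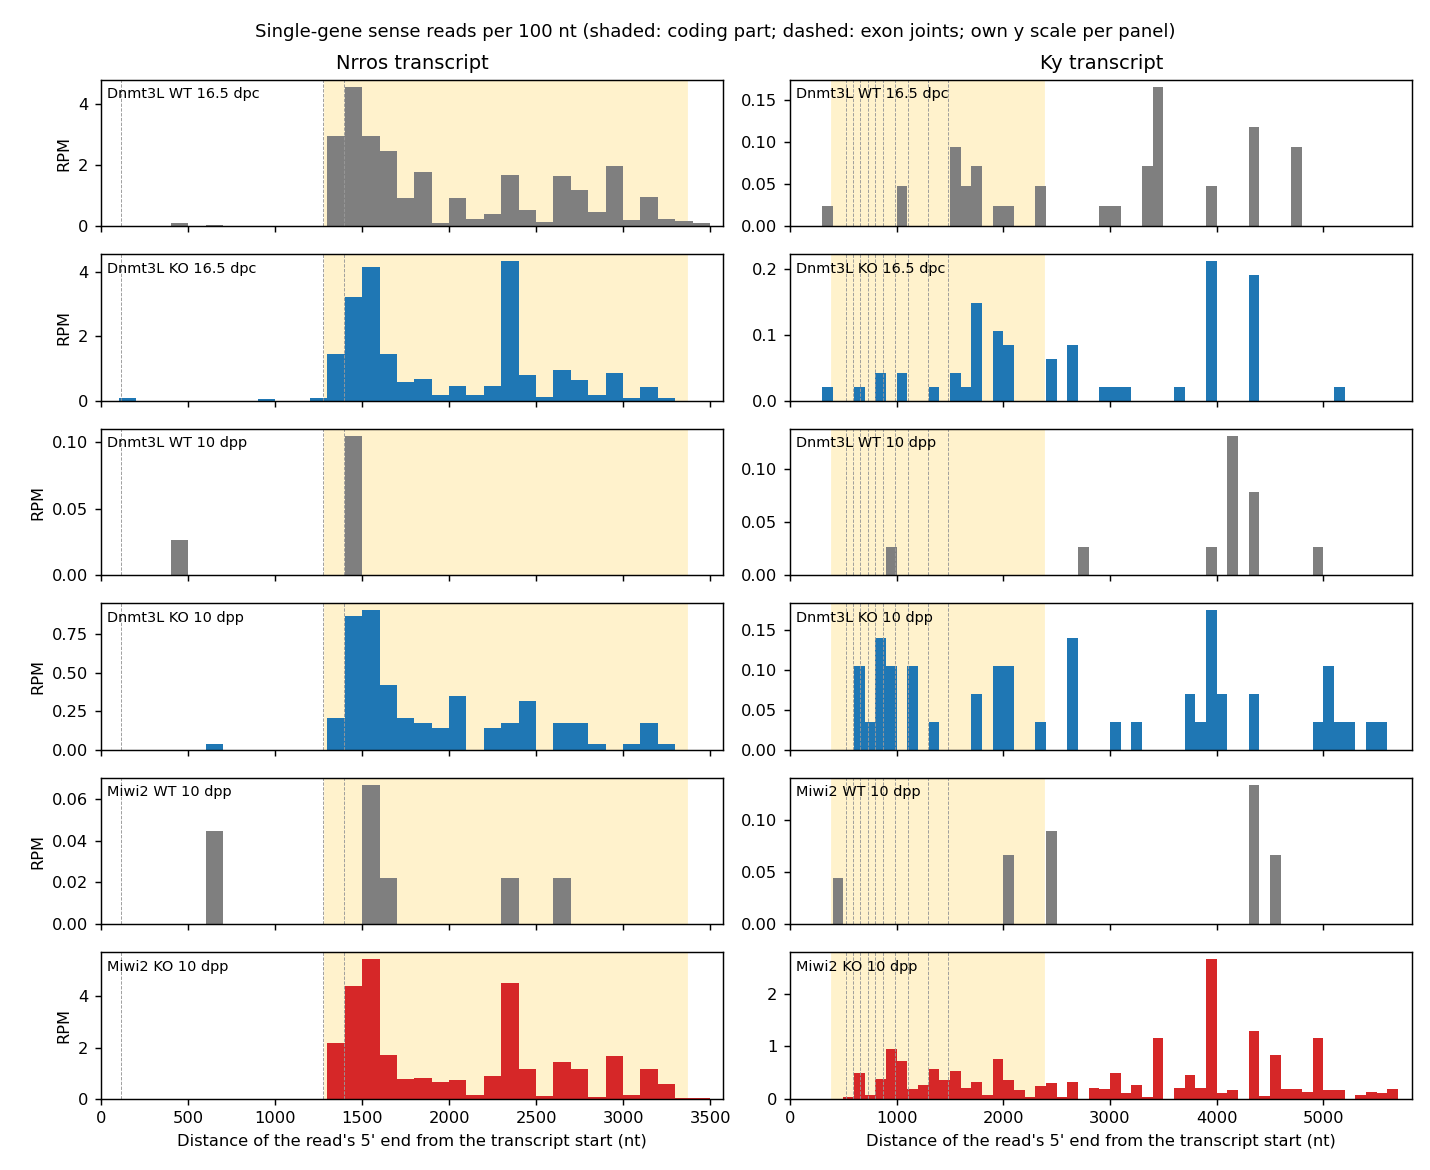
Sense reads found in 1 gene, in RPM per 100 nt, by the distance of their 5′ end from the transcript start, for Nrros (left) and Ky (right) in each library, with the CDS shaded and exon joints dashed. The y scale differs between panels. Nrros reads lie almost wholly in the CDS in the libraries with many reads, and Ky reads spread over CDS and 3′ UTR in Miwi2 KO.

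Most Nrros reads began at positions used both in fetal testes and in Miwi2 KO testes of 10 dpp. Position 1526 was the most used start in 4 libraries: it held 113 of 1139 reads in fetal Dnmt3L WT, 147 of 1019 in fetal Dnmt3L KO, 24 of 131 in Dnmt3L KO of 10 dpp and 150 of 1110 in Miwi2 KO. Reads from this start had 8 lengths, from 24 to 31 nt. Miwi2 KO had 149 start positions and fetal Dnmt3L WT had 150, of which 72 were shared, 48.3% and 48.0%. These shared starts held 81.1% of the Miwi2 KO reads and 83.9% of the fetal reads. For comparison, both fetal libraries shared 73 starts, which held 82.0% of the reads of Dnmt3L WT and 83.1% of those of Dnmt3L KO. Of the 55 starts in Dnmt3L KO of 10 dpp, 34 were also used in Miwi2 KO, and they held 75.6% of its reads.

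Starts lay mostly at U, which limits where reads can begin. The Nrros CDS has 483 U positions, and 99 of them, 20.5%, were used as starts in Miwi2 KO against 108, 22.4%, in fetal Dnmt3L WT. Not every position kept its weight. Position 1683 held 56 reads in fetal Dnmt3L WT and 13 in Miwi2 KO, whereas position 2350 held 25 and 60, from libraries of similar depth. These positions are among the 8 most used and were singled out after their values were seen.

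**Figure D4:**
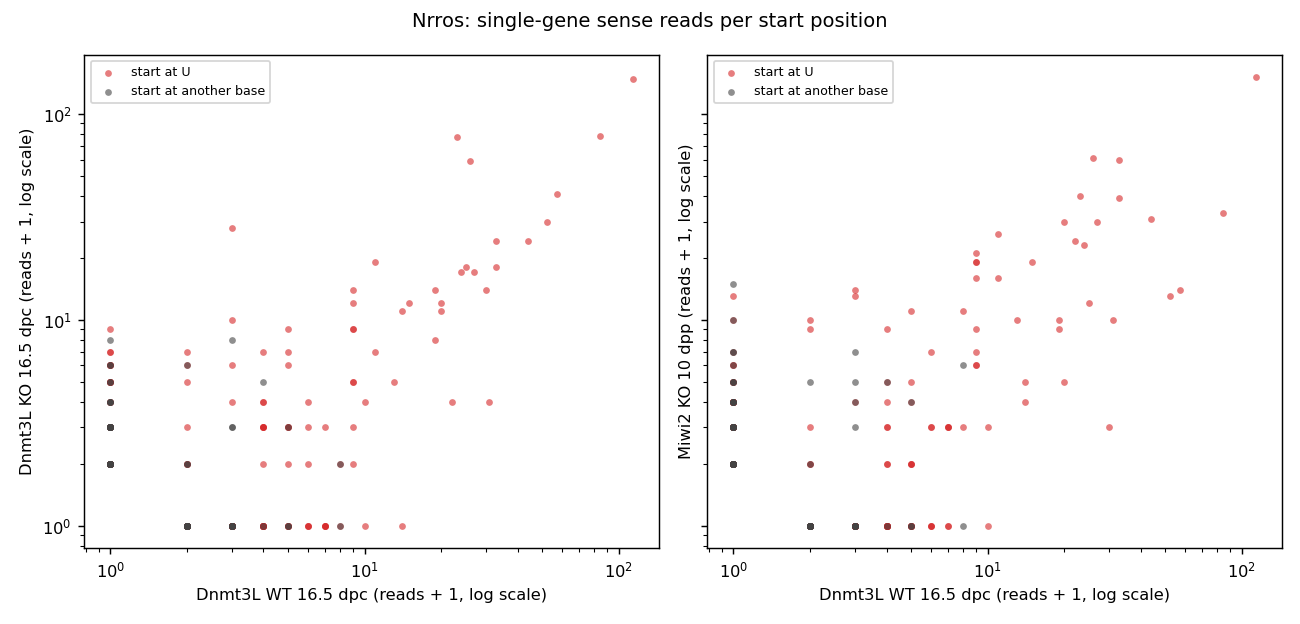
Reads per start position of Nrros, as reads + 1 on log scales, with fetal Dnmt3L WT on the x axis and either fetal Dnmt3L KO (left) or Miwi2 KO of 10 dpp (right) on the y axis. Red points start at U. The highest point at upper right is position 1526 in both panels, with 113 reads on the x axis.

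For Ky the fetal reads were few, but most began where Miwi2 KO reads began. Of the 18 starts in fetal Dnmt3L WT, 16 were also used in Miwi2 KO, where 149 starts were in use, and these 16 held 89.7% of the fetal reads and 34.0% of the Miwi2 KO reads. Of the 27 starts in Dnmt3L KO of 10 dpp, 16 were also used in Miwi2 KO. Position 4975 held 35 reads in Miwi2 KO and 0 in every other library. Position 4394 held 38 reads in Miwi2 KO and 6 of the 18 reads of Miwi2 WT.

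Most reads of both genes began with U. For Nrros, 93.5% (91.9% to 94.9%) of reads began with U in fetal Dnmt3L WT, 89.7% in fetal Dnmt3L KO, 89.3% (82.7% to 94.0%) in Dnmt3L KO of 10 dpp and 87.5% (85.4% to 89.4%) in Miwi2 KO, against 23.2% U in the CDS. For Ky the share was 85.4% (82.6% to 88.0%) in Miwi2 KO, 94.9% and 84.2% in the fetal libraries, and 96.0% in Dnmt3L KO of 10 dpp, against 21.8% U in the transcript. Over 468 transcripts with at least 500 reads in Miwi2 KO, the median share was 84.5%. Counting each distinct sequence once lowered the share in Miwi2 KO to 74.4% for Nrros and 77.1% for Ky.

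The share of A at position 10 differed between the genes in Miwi2 KO and not in every library. In Miwi2 KO, A stood there in 17.8% (15.6% to 20.2%) of Nrros reads and in 29.6% (26.2% to 33.1%) of Ky reads, against a median of 24.2% over the 468 transcripts. In fetal Dnmt3L KO it was 23.9% for Nrros and 22.8% (12.7% to 35.8%) for Ky. In fetal Dnmt3L WT it was 19.7% and 38.5% (23.4% to 55.4%), and in Dnmt3L KO of 10 dpp 19.8% and 28% (16.2% to 42.5%). The Nrros CDS is 19.6% A and the Ky transcript 23.6% A. The base after the 3′ end of the reads was U in 19.5% of Nrros reads and 17.8% of Ky reads in Miwi2 KO, below the U content of the Nrros CDS and the Ky transcript. For Nrros that base was U in 28.7% of reads in fetal Dnmt3L WT, 19.4% in fetal Dnmt3L KO and 16.0% in Dnmt3L KO of 10 dpp.

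Read lengths had the profile of piRNAs. In Miwi2 KO, 94.7% of the Nrros reads of 18 to 35 nt and 96.5% of the Ky reads were 24 to 32 nt long. Nrros reads were nearly level there from 26 to 28 nt, with 252, 247 and 250 reads. The most frequent length of Ky reads was 27 nt, with 227 reads. Reads of 26 to 28 nt made up 67.5% (64.6% to 70.2%) of Nrros and 68.8% (65.2% to 72.3%) of Ky reads there, against a median of 65.8% over the 468 transcripts. Nrros reads were longer in Miwi2 KO than before birth: 25.5% (22.95% to 28.2%) were 29 to 32 nt long, against 12.6% (10.8% to 14.7%) in fetal Dnmt3L WT and 19.6% (17.2% to 22.2%) in fetal Dnmt3L KO. The libraries as wholes differed less, with 26.5%, 25.4% and 24.6% of their reads of 24 to 32 nt in that range. In Dnmt3L KO of 10 dpp, 3 of 131 Nrros reads, 2.29%, were that long, in a library with few long reads.

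**Figure D5:**
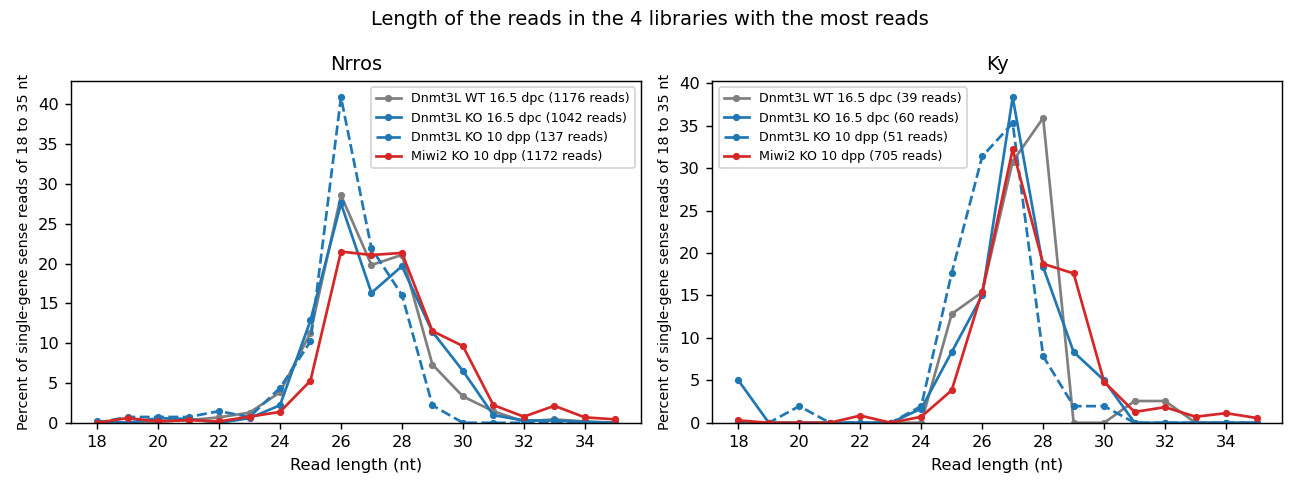
Length in nt of the sense reads found in 1 gene, as a percentage of the gene's reads of 18 to 35 nt, for Nrros (left) and Ky (right) in the 4 libraries with the most reads. Nrros reads peak at 26 nt in the Dnmt3L libraries shown and are nearly level from 26 to 28 nt in Miwi2 KO. The Miwi2 KO line of Nrros lies above the fetal lines at 30 nt. The Ky lines other than Miwi2 KO rest on 39 to 60 reads.

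Antisense reads were few and mostly fetal. For Nrros, those found in 1 gene numbered 28 in fetal Dnmt3L WT and 38 in fetal Dnmt3L KO, and 2, 0, 4 and 2 in Dnmt3L WT, Dnmt3L KO, Miwi2 WT and Miwi2 KO at 10 dpp. Ky had 18 and 6 in the fetal libraries and 0 in each library of 10 dpp, where 3 reads would be 0.0806 RPM in Miwi2 KO. The sense signal of Miwi2 KO therefore stood almost alone on its strand, with 1110 against 2 reads for Nrros and 680 against 0 for Ky. The fetal Nrros antisense reads lay in the CDS, with 28 of 28 in Dnmt3L WT and 36 of 38 in Dnmt3L KO.

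Overlaps of 10 nt between 5′ ends on opposite strands were seen for Nrros before birth and not at 10 dpp. Of the 21 pairs of positions with an overlap of 1 to 20 nt in fetal Dnmt3L WT, 2 overlapped by 10 nt, and they made up 11.3% of pairs weighted by reads. In fetal Dnmt3L KO, 3 of 20 pairs did, with 29.5% of the weight, or 109 of 369 pairs weighted by reads. Most of these 109 came from 1 pair, sense start 1425 with 23 reads and an antisense read from 1434 counted 3 times. Whether overlaps of 10 nt exceeded those of other lengths was not tested. No library of 10 dpp had any pair with an overlap of 1 to 20 nt, and with 0 to 4 antisense reads in each such pairs were not detectable at this depth. Ky had no such pair in any library. The pair with the largest product of reads is shown, since its sense read is among those that were abundant in Miwi2 KO.
Nrros 1425 sense: TgaaccttgCttcggtacccagcagcct
Nrros 1434 antisense: GcaaggttcAgaccccggcagtcagcgac
The sense read lies on chr16:32144950-32144977 and was counted 23 and 15 times in fetal Dnmt3L WT and KO, 1 time in Dnmt3L KO of 10 dpp and 34 times in Miwi2 KO. The antisense read lies on chr16:32144968-32144996 and was counted 3 times, all in fetal Dnmt3L KO. Its A at position 10 follows from the choice of the pair, since that base lies opposite the U that begins the sense read. The most abundant antisense read of Ky, TgaaaggaaAtccccgggcgcggccctg on chr9:102505888-102505915, matched the 5′ UTR and was counted 8 times in fetal Dnmt3L WT alone.

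In the longest transcript of Nrros, reads shared with other genes touched only the 5′ UTR. There, 32 distinct sense reads with 279 counts, between positions 455 and 935, were also found in other genes, up to 2596 genes for a single read. They made up most of what was found in the WT libraries of 10 dpp: 41 of 46 reads in Dnmt3L WT and 92 of 100 in Miwi2 WT, against 65 of 1175 in Miwi2 KO. Counting only reads found in 1 gene left 5 and 8 Nrros reads in these WT libraries and 1110 in Miwi2 KO. Ky had 0 reads shared with other genes. Allowing 1 mismatch raised the Nrros reads from 12 to 31 in Miwi2 WT and from 1110 to 1310 in Miwi2 KO after division, which lowered the log2 ratio from 6.81 to 5.68. For Ky it raised them from 18 to 26 and from 680 to 766, with a log2 ratio of 5.15.

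Genes beside Nrros and Ky did not share their pattern. Left of Nrros, the lincRNA Gm15729 had 0.345 RPM in Miwi2 KO and 0.591 RPM in Miwi2 WT, and Bex6 on the other side had 0 reads in all libraries. The neighbours of Ky, Gm47983 and the rRNA gene Gm25669, had 0 reads in both Miwi2 libraries. Across the 6 libraries, the transcripts whose log2 levels were most like Nrros were Gm42566 (Pearson r = 0.984), Gm21962 (0.981) and Gm47628 (0.978), out of 3248 transcripts. Most like Ky were Zfp781 and Gm3055, both at 0.999 with identical values, and Gm49165 at 0.957. For these 6 transcripts, 0% to 20.4% of the Miwi2 KO reads were found in 1 gene, with reads of at least 10 genes left out. Nrros and Ky themselves had r = 0.689. These coefficients are descriptions over 6 libraries that share depth and scaling.

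Partners of both proteins gave little small RNA. Of 11 genes of TGF-beta presentation, 0 reached 500 reads in the Miwi2 comparison, and the list summed to 5.75 RPM in the KO and 3.75 RPM in the WT. The closest relative of Nrros, Lrrc32, which holds latent TGF-beta on regulatory T cells and platelets, had 1.34 RPM in the KO and 1.78 RPM in the WT. Ltbp2 and Tgfb3 were also lower in the KO. By contrast, Ltbp1, which binds latent TGF-beta in the matrix, had 0 reads in Miwi2 WT and 23 in Miwi2 KO. Ltbp4 had the highest level of the list in Miwi2 KO, at 1.96 RPM against 0.489 RPM in Miwi2 WT. Of 11 muscle Z-disc and filament genes, only Ttn, the giant spring of the sarcomere, was compared, with 4.25 RPM in the KO and 8.40 RPM in the WT, and it did not pass the limit. Flnc, the partner of Ky, had 0.914 RPM in the KO and 0.244 RPM in the WT. Of 16 genes of the piRNA pathway, 0 reached 500 reads in any comparison. In both Dnmt3L comparisons no member of these 3 lists reached 500 reads, so there was no call to make.

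In bulk testis, fewer cells of a type and less RNA per cell cannot be told apart. Small RNA from the 10 macrophage markers summed to 0.806 RPM in Miwi2 KO and 0.872 RPM in Miwi2 WT, with 3 of the 10, Adgre1, C1qc and Ptprc, at 0 in both. The 6 muscle markers summed to 3.06 and 1.59 RPM, with Des at 0 in both, and the 6 germ cell markers to 14.5 and 13.4 RPM. Members of each list went both ways. Among macrophage markers, Cx3cr1 (0.202 RPM in Miwi2 KO and 0.528 RPM in Miwi2 WT), C1qa and C1qb were lower in Miwi2 KO. Cd68 (0.296 and 0.0222 RPM), Csf1r, Lyz2 and Tyrobp were higher. Acta2 (1.56 and 0.350 RPM) and Myh11 (0.918 and 0.381 RPM) were higher in Miwi2 KO, while Acta1, Ckm and Tagln were lower. Dazl, Mael, Tdrd1 and Sycp3 were higher there, while Piwil2 and Ddx4 were lower. In the Dnmt3L libraries of 10 dpp, macrophage markers summed to 0.287 RPM in the KO and 0.788 RPM in the WT, muscle markers to 0.438 and 0.720 RPM, and germ cell markers to 1.11 and 6.72 RPM. These sums are small RNA, not mRNA, and the part of cell composition in the levels of Nrros and Ky was not tested.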

How the data were processed

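Small RNA of 18 to 35 nt from Trizol extracts of pooled whole testes was made into Illumina TruSeq libraries, per the labels. The deposited values are raw counts, 1 per distinct read sequence and library, as the authors left them. The submitters' processing notes name the build mm9. How reads were trimmed, filtered or aligned is not given in the sources used here.

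Reads of 24 to 32 nt were matched without mismatch, in both orientations, to 1 transcript per gene, the longest in GENCODE vM21 (GRCm38), so coordinates are on GRCm38. Reads of miRNA and other small RNA genes, and reads found in at least 10 genes, were left out of transcript levels, and other shared reads were divided evenly. Where a read is said to be found in 1 gene, it counted only there. Counts were scaled to RPM over all reads of the library, 28701563 to 47232494. Each group is 1 pooled library, so no test was run. Ratios have conditional binomial intervals, counts Poisson and shares Clopper-Pearson intervals, all exact and at 95%. They cover counting error only, since reads carry no molecular identifiers. Calls used transcripts with at least 500 sense reads and the 95th percentile of the size of log2 ratios of Miwi2 WT to Dnmt3L WT at 10 dpp. Likeness used log2(RPM + 0.1).

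Genes named are Nrros, Ky, their neighbours, the 3 most alike transcripts, and the transcripts at the limit's edges. List members named were picked after their values were seen, as none passed the limit. The genes and the lists were chosen with earlier results of these data known. Alternatives were TMM factors (edgeR 4.0.16), miRNA or piRNA-size scaling, distinct reads, other lengths, minimums and transcripts, and 1 mismatch. Tools were Python 3.11.15, numpy 2.4.6, pandas 2.3.3, scipy 1.17.1 and matplotlib 3.10.9. The call step was tested on simulated data with large changes. A sample of the matches of real reads was checked against the transcript sequences, which cannot find missed matches.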

Additional observations from a re-analysis of the deposited data

Results flagged for a closer look

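Nrros moved in opposite directions with loss of Dnmt3L at both ages. Its log2 ratio of KO to WT was 4.16 at 10 dpp and -0.31 at 16.5 dpc. With 1 library per group, the difference between ages was not tested, and the fetal ratio is within the size limit of 2.02.

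Reads outside the 24 to 32 nt range were also more frequent in Miwi2 KO than in Miwi2 WT. Nrros had 24 sense reads of 18 to 23 nt and 38 of 33 to 35 nt in Miwi2 KO, against 0 of each in Miwi2 WT. Ky had 8 reads of 18 to 23 nt and 17 of 33 to 35 nt in Miwi2 KO, against 0 of each in Miwi2 WT.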

How the results depend on the processing

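In each of 10 alternatives, both genes stayed past the limit in the Miwi2 comparison, with log2 ratios of 5.65 to 7.39 for Nrros and 5.07 to 6.05 for Ky, as did Nrros in the Dnmt3L comparison at 10 dpp (3.30 to 6.77). Ky stayed past it there in 9 of 10. Its log2 ratio of 2.47 fell to 2.23 with miRNA scaling and rose to 5.08 with TMM factors, 3.15 over distinct reads and 2.97 with piRNA-size scaling, and the cause was not tested. Between both WT libraries, which hold 9.75 to 18 reads of each gene, the log2 ratio of Nrros became -0.95 with TMM factors, -0.45 with piRNA-size scaling, -0.80 over distinct reads and -0.068 over 24 to 28 nt. That of Ky became -0.67, -0.17 and -1.05 with the first 3 of these. TMM moved the median log2 ratio of the Dnmt3L comparison at 10 dpp from -3.00 to -0.39 and that of the Miwi2 comparison from -0.65 to -0.11.

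Counts of transcripts depended on the setting, and so did the number compared, which is given beside them. TMM, miRNA and piRNA-size scaling kept the transcripts of the main setting. In the Miwi2 comparison, higher transcripts numbered 107 of 1666 (6.42%), but 185 with TMM (11.1%). They numbered 15 of 319 over distinct reads (4.70%) and 18 of 1177 over reads found in 1 gene (1.53%). Lower ones numbered 8, but 17 with TMM, 1 with miRNA scaling and 66 with piRNA-size scaling. They numbered 1 of 319 over distinct reads, 16 of 1496 over 25 to 30 nt and 62 of 1297 over 24 to 28 nt. Over reads found in 1 gene they numbered 20 of 1177, and with a minimum of 100, 19 of 5750. For Dnmt3L at 10 dpp, 9 of 613 were higher, but 69 with TMM, 0 with miRNA scaling and 23 with piRNA-size scaling. The count was 3 of 135 over distinct reads, 17 of 548 over 24 to 28 nt and 1 of 475 over reads found in 1 gene. Lower ones numbered 502 of 613, but 78 with TMM and 53 of 135 over distinct reads. With a minimum of 100 they numbered 1542 of 2237, and with 1000, 264 of 314. At 16.5 dpc, 1 of 1154 was higher, but 9 with TMM, 3 with piRNA-size scaling and 0 with miRNA scaling. The count was 3 of 859 over 24 to 28 nt, 3 of 5188 with a minimum of 100 and 0 of 136 over distinct reads. Of lower ones there was 1, but 4 with TMM or piRNA-size scaling. There were 0 of 136 over distinct reads, 0 of 535 over reads found in 1 gene and 0 of 595 with a minimum of 1000. Between both WT libraries, 73 of 1473 were higher, but 41 with TMM and 0 of 337 over distinct reads. With a minimum of 1000 the count was 41 of 805, and with 100 it was 252 of 5061. Of lower ones there was 1, but 33 with TMM, 4 with piRNA-size scaling, 17 over distinct reads and 0 with miRNA scaling or a minimum of 1000.

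No paired analysis was possible because each group is 1 library. For the same reason no replicate could be left out. Ratios against the WT libraries of 10 dpp rest on few WT reads, which sets their precision. Dnmt3L WT and Miwi2 WT had 12 and 18 reads of Ky. They had 9.75 and 12 reads of Nrros after division, and 5 and 8 found in 1 gene.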
